A study of Mus musculus with 51 samples.

Results

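The odorant receptor genes numbered *Olfr460* to *Olfr520* in the mouse were followed across 10 odor exposures, leaving out *Olfr502* and *Olfr506*, which served as reference receptors. Members were taken by number, and 48 of the 1117 odorant receptor (OR) genes in the count tables met the rule. The range and the receptors left out were chosen with earlier results of these data known. Counts over all ORs include both reference receptors, and counts of members do not. In GENCODE M21 on the GRCm38 build, 42 of the 48 lie on chromosome 7. A run of 41 members, from *Olfr467* to *Olfr519*, covers 1082.2 kb at chr7:107812263-108894420, with *Olfr502* and *Olfr506* inside it. *Olfr520* lies on chromosome 7 as well, outside this run, at chr7:99730273-99736399. The remaining 6 members are elsewhere, with *Olfr460* and *Olfr461* on chromosome 6, *Olfr462*, *Olfr463* and *Olfr464* on chromosome 11 and *Olfr466* on chromosome 13, so a chromosome 7 label does not hold for them. *Olfr471* is annotated as an unprocessed pseudogene.

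Odorant receptors are G protein-coupled receptors of olfactory sensory neurons (OSNs), and a mature OSN expresses 1 receptor gene from 1 allele. OR genes arose largely by tandem duplication, so neighbours in a genomic cluster are often close in sequence, and relatives can share or differ in the odors they detect. Activity of an OSN leads to phosphorylation of ribosomal protein S6. Immunoprecipitating phosphorylated S6 with its ribosomes (pS6-IP-Seq) therefore enriches the receptor mRNA of OSNs that an odor activated.

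Whole olfactory mucosa was taken from wild-type C57BL/6J mice about 3 weeks old, littermates of both sexes, and gave 51 libraries, with 30 libraries in 10 odor groups and 21 in 7 control groups, 3 in each. After habituation, a mouse was exposed for 1 hr to 10 µL of an odor or of diluent on blotting pad. The odors were 2-sec-butyl-4,5-dihydrothiazole (SBT, a male mouse urinary volatile) at 0.01%, 1% and 100%, 2,5-dimethylpyrazine (2,5-DMP, a urinary volatile of female mice) at 1%, 3,4-dehydro-exo-brevicomin (DHB) at 77%, (E)-β-farnesene at 100%, β-caryophyllene at 1%, (methylthio)methanethiol (MTMT) at 100 µM and 10 mM, and the musk cyclopentadecanone (CPD) at 100 mM. Per the study's methods MTMT and CPD were diluted in ethanol and other diluted odors in water, and control mice received either, but the labels do not say which. SBT at 1% and 100% shared 3 control libraries, and (E)-β-farnesene, 2,5-DMP and 100 µM MTMT shared another 3. These last controls cannot match the diluent of both 2,5-DMP and MTMT, so in at least 1 of the comparisons that use them odor and diluent cannot be told apart. The tables hold OR genes only, so no marker of OSNs or of other cells of the mucosa could be checked, and fewer OSNs with a receptor could not be told apart from less of its RNA per OSN. Libraries held 27301 to 160001 OR reads (median 93870). A few libraries stood apart. The second of β-caryophyllene had 3 reads each of *Olfr502* and *Olfr506* among 99952 and a summed member share of 3.55%. In the first of 1% SBT *Olfr545* took 14.4% of OR reads, and in the third of 10 mM MTMT *Olfr541* took 9.79%, neither of them a member. Leaving out any 1 of these libraries changed no count of members called. Whether libraries came from separate litters is not in the labels, and p-values measure the spread between these libraries.

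Many members were close in sequence to *Olfr502* and *Olfr506*. After translation of the annotated coding sequences, 19 members shared at least 70% of their amino acids with 1 of these receptors, 27 at least 60% and 30 at least 50%. *Olfr502* and *Olfr506* shared 83.4% with each other. The member closest to *Olfr502* was *Olfr478* (86.3%), ahead of *Olfr469* (85.7%), *Olfr490* and *Olfr493* (84.7% each) and *Olfr494* (83.4%). The members closest to *Olfr506* were *Olfr507* (82.9%), *Olfr493* (82.5%), *Olfr510* and *Olfr492* (82.2% each) and *Olfr494* (81.85%). *Olfr491* shared 67.2% with *Olfr502*, and belonged with 6 members that shared at least 70% with it (*Olfr472*, *Olfr473*, *Olfr474*, *Olfr476*, *Olfr477* and *Olfr508*). *Olfr503* and *Olfr504*, the members nearest to *Olfr502* in the genome, shared 27.9% and 26.7% with it. Shown are 150 coding bases of the 5 receptors on which the results turn, starting at the codons of the conserved MAYDR motif at the end of the third transmembrane segment, 5′ to 3′ on the coding strand, with capitals where a base differs from *Olfr502* (GRCm38).
Olfr502 (chr7:108523439-108523588, minus strand): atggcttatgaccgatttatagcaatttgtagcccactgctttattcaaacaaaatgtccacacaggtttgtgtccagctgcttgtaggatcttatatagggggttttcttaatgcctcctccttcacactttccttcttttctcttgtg
Olfr478 (chr7:108031832-108031981, minus strand): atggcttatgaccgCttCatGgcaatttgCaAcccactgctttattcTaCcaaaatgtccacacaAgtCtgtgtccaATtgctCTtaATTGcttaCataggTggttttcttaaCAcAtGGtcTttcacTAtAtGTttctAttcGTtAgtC
Olfr490 (chr7:108286615-108286764, minus strand): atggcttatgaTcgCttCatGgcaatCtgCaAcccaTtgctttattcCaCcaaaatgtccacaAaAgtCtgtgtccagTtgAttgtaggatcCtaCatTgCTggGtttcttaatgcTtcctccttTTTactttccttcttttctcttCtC
Olfr506 (chr7:108612669-108612818, plus strand): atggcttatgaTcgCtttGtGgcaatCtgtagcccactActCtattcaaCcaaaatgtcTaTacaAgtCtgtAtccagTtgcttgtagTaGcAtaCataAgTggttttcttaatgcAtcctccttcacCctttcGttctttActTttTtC
Olfr491 (chr7:108317247-108317396, plus strand): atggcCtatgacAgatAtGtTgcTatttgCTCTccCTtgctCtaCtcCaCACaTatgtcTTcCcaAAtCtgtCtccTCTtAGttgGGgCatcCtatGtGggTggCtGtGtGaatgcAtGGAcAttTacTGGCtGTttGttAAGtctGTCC
In this stretch *Olfr478* differed from *Olfr502* at 35 bases, *Olfr490* at 27, *Olfr506* at 27 and *Olfr491* at 62.

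Members differed widely in level without odor. The level was taken as reads per kb of annotated exon per 100000 OR reads, over the 21 control libraries. These are pS6 immunoprecipitates too. The number of OSNs, RNA per OSN and phosphorylation of S6 without odor therefore cannot be told apart in a level. *Olfr477* was the highest member at 161 ± 90.2 (SD, n = 21), rank 28 of all ORs. *Olfr464* followed at 106 ± 21.3, *Olfr491* at 87.6 ± 46.8, *Olfr463* at 83.3 ± 24.1, *Olfr516* at 67.3 ± 21.8 and *Olfr472* at 56.7 ± 26.6 (each SD, n = 21). Each of these 6 differed from its neighbour in this order by less than the larger of their SDs. The median level of the 48 members was 8.34 against 14.2 for all 1117 ORs, and 17 members lay above the latter. The reference receptors were at 16.2 ± 4.84 for *Olfr506* and 13.2 ± 4.41 for *Olfr502*, with *Olfr478* at 11.95 ± 3.64 and *Olfr490* at 5.65 ± 3.51 (each SD, n = 21).

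At the low end, *Olfr519* had 32 reads in all 51 libraries together, 21 of them in the third library of 10 mM MTMT, and *Olfr514* had 6. *Olfr504* had 0 of 4730857 OR reads, which allows a share of up to 6.3e-05% by counting error alone. With at least 10 reads over the libraries of a comparison required, 39 members were tested in all 10 comparisons, 6 in some and 3 (*Olfr471*, *Olfr504* and *Olfr514*) in none. A few pairs share long identical stretches, so that their reads could be split wrongly. Of the 50-base words of *Olfr486*, 35.9% also occur in *Olfr487*, and *Olfr469* and *Olfr470* share 23.8% and 24.5%. *Olfr519* and *Olfr516* share 27.7% and 18.1% of their words with each other. *Olfr471* shares 20.7% with *Olfr467*, and *Olfr463* shares 15.6% with *Olfr462*. The most that *Olfr478* shared with any 1 gene was 2.9% (with *Olfr470*), and for *Olfr491* it was 0.896% (with *Olfr477*). *Olfr490* shares 2.56% of its words with *Olfr502*, and *Olfr506* shares 5.655% of its words with *Olfr482*. Whether reads of these receptors were counted to each other was not tested.

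**Figure D1:**
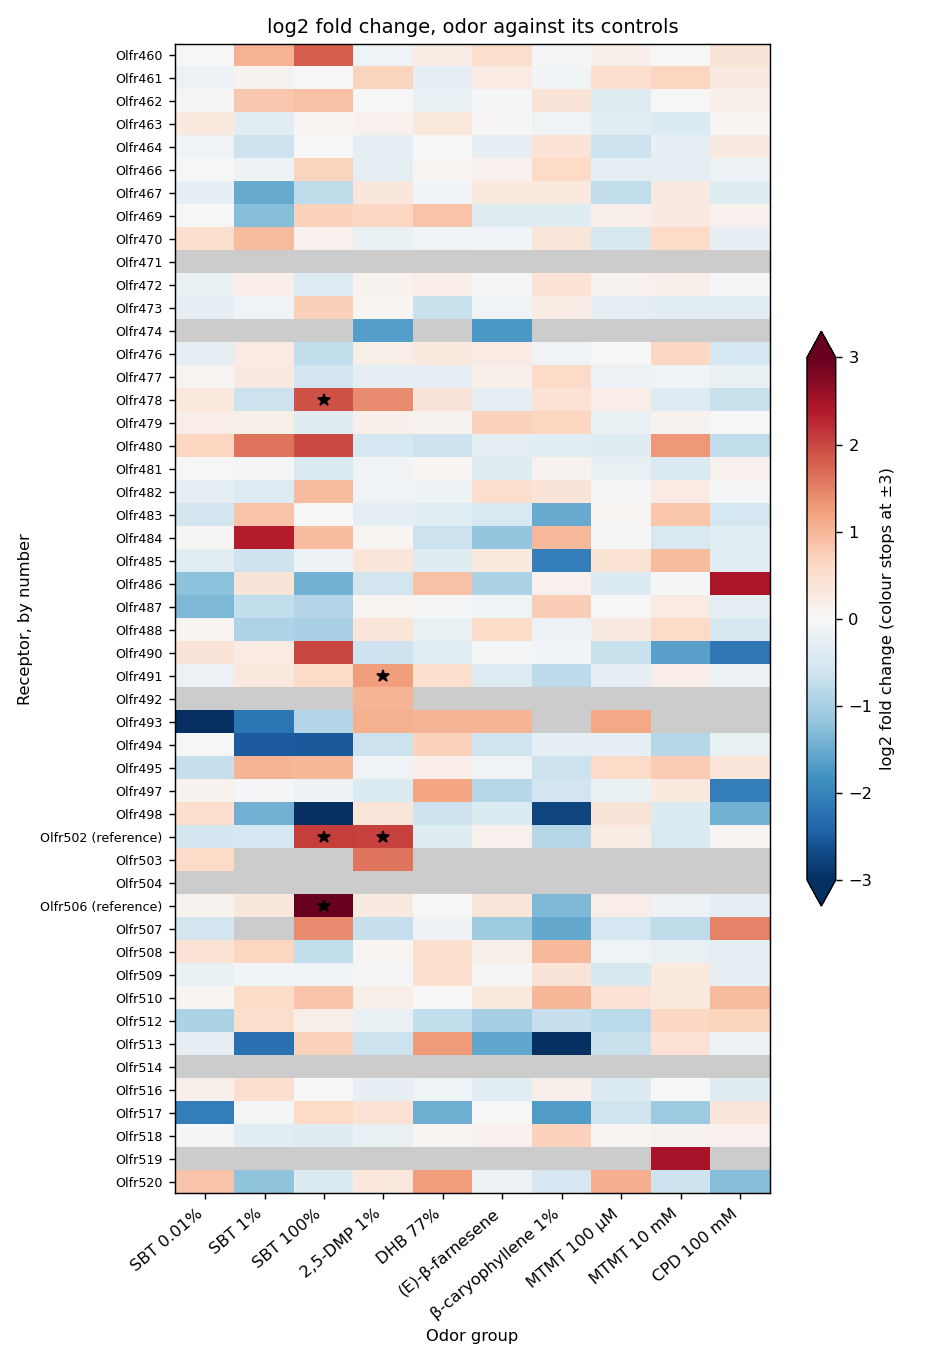
log2 fold change of the 48 receptors and of *Olfr502* and *Olfr506* (rows, by number) in each of 10 odor groups against its 3 control libraries (columns), with stars at adjusted p under 0.05 (edgeR) and grey where a receptor had too few reads to be tested. Among members the stars are at *Olfr478* in 100% SBT and at *Olfr491* in 2,5-DMP, from fits without pairing. Colour alone does not show a call, since *Olfr478* after 2,5-DMP (log2 fold change 1.42) has no star.

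Exposure to undiluted SBT raised 1 member, *Olfr478*, beside both reference receptors. *Olfr478* had 99, 74 and 67 reads in the 3 odor libraries and 14, 27 and 7 in the controls, or 0.103 ± 0.0278% against 0.0349 ± 0.0111% of OR reads (SD, n = 3 each). All 3 odor libraries lay above all 3 controls. The log2 fold change was 1.90 (standard error, SE, 0.43, adjusted p = 0.00888 over all ORs, edgeR), and it ranked 80th by p among 1050 ORs. Of those 1050, 120 or 11.4% passed (112 higher, 8 lower), against 1 of the 41 members tested. Both reference receptors are among the 120 and were left out of the 41 by choice, which lowers the count of members. The call of *Olfr478* was lost without the first odor library (adjusted p = 0.0518) and was kept without any other single library. *Olfr506* rose far more, from 23, 10 and 10 reads to 654, 613 and 461 (log2 fold change 4.77, SE 0.41, adjusted p = 2.62e-05), the lowest p of all ORs. *Olfr502* rose from 32, 25 and 8 reads to 98, 193 and 100 (log2 fold change 2.06, SE 0.42, adjusted p = 0.0043).

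No other member passed the test at 100% SBT. The reference receptors that did, *Olfr502* and *Olfr506*, share 86.3% and 80.25% of their amino acids with *Olfr478*. *Olfr490* had 24, 52 and 18 reads against 7, 8 and 1, with all odor libraries above the controls in share, but a log2 fold change of 2.01 (SE 0.67) with adjusted p = 0.0728. *Olfr494* had 2, 6 and 4 reads against 19, 29 and 5, all below the controls in share, at a log2 fold change of -2.51 (SE 0.79, adjusted p = 0.0601). It passed in 4 of 12 alternative analyses, among them DESeq2. *Olfr469* (log2 fold change 0.70, 95% interval -0.50 to 1.90) and *Olfr510* (0.86, interval -0.48 to 2.20) had intervals on both sides of 0. *Olfr507* and *Olfr493* had at most 10 reads in any library of this experiment, and *Olfr492* had none at 100% SBT or in the controls. *Olfr498* had 0, 0 and 1 reads against 12, 10 and 0 and no usable fold change. In share, 3 of 41 members (*Olfr460*, *Olfr478* and *Olfr490*) lay above the controls in every odor library, against 13.3% of all ORs tested, and 8 lay below, against 20.3% of all ORs.

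Lower doses of SBT moved no member past the test. At 1% SBT, 0 of 40 members tested were called, against 9 of 1043 ORs (0.863%), with 2 members at an unadjusted p under 0.05, against 5.08% of all ORs, and 0 called by DESeq2. The lowest p belonged to *Olfr467*, with 4, 14 and 15 reads against 29, 29 and 15 (log2 fold change -1.52, adjusted p = 0.873), and to *Olfr494*, with 0, 2 and 9 reads against 19, 29 and 5 (-2.50, adjusted p = 0.873). *Olfr478* had 1, 29 and 11 reads, and the share of 0.00241% in the first library has a 95% Wilson interval of 0.000426% to 0.0137%, for counting error only. At 0.01% SBT, in a separate experiment with its own controls, 0 of 42 members were called against 5 of 1072 ORs (0.466%), again with 2 at an unadjusted p under 0.05, against 2.71% of all ORs, and 0 by DESeq2. The 2 were *Olfr487* (27, 19 and 11 reads against 95, 23 and 22) and *Olfr493* (1, 1 and 0 against 10, 2 and 9), each with adjusted p = 0.999. *Olfr478* was at 38, 27 and 31 reads against 35, 18 and 19 (log2 fold change 0.31, SE 0.41).

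The doses of 1% and 100% were also compared directly, in 1 fit of their 9 libraries. *Olfr478* was higher at 100% by a log2 difference of 2.56 (SE 0.61, adjusted p = 0.0116, edgeR), the only 1 of 41 members called, against 80 of 1063 ORs (7.53%). The difference missed 0.05 without the first library of 100% SBT (adjusted p = 0.0623) or the third of 1% SBT (adjusted p = 0.0541). Without the first of 1% SBT, which held 1 read of *Olfr478*, it was 2.12 (adjusted p = 0.0319, edgeR). *Olfr506* and *Olfr502* differed by 4.43 and 2.66 in the same contrast. *Olfr490* had a difference of 1.86 (SE 0.77, adjusted p = 0.208).

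Exposure to 2,5-DMP raised *Olfr491*. It had 546, 699 and 503 reads against 129, 318 and 211 in the controls, or 0.509 ± 0.149% against 0.211 ± 0.042% of OR reads (SD, n = 3 each), without overlap. The log2 fold change was 1.24 (SE 0.27, adjusted p = 0.0182, edgeR), rank 9 by p among 1070 ORs. Of these, 9 or 0.841% passed, all higher and *Olfr502* among them, against 1 of 44 members, which leave *Olfr502* out. The call of *Olfr491* was lost without the first 2,5-DMP library (adjusted p = 0.168), the second (0.133) or the third control (0.193), and in the single fit of all 51 libraries (0.163). Its log2 fold change stayed between 1.08 and 1.47 without any 1 library.

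*Olfr478* was next in order, just outside the threshold in the fit without pairing. It had 145, 123 and 90 reads after 2,5-DMP against 14, 58 and 57, or 0.107 ± 0.047% against 0.0383 ± 0.0138% (SD, n = 3 each), again without overlap. Its log2 fold change was 1.42 (SE 0.34, adjusted p = 0.054). With replicate number as a block, which the correlated deviations of same-numbered libraries allow here, it passed (log2 fold change 1.30, adjusted p = 0.00188, edgeR), as it did by DESeq2 (adjusted p = 0.0273). Leaving out 1 library gave adjusted p from 0.000572 (without the third of 2,5-DMP) to 0.681 (without the first, log2 fold change 1.00). *Olfr502* rose from 13, 39 and 61 reads to 189, 148 and 159 (log2 fold change 2.04, SE 0.32, adjusted p = 0.000826), whereas *Olfr506* was at 47, 73 and 94 against 21, 59 and 75 (log2 fold change 0.27, SE 0.28, 95% interval -0.29 to 0.82).

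Since (E)-β-farnesene and 100 µM MTMT were given beside the same controls, 2,5-DMP was also set against the mean of these odor groups, without use of the control libraries in the contrast. *Olfr491* was higher by 1.55 on the log2 scale (SE 0.22, adjusted p = 2.74e-05) and *Olfr478* by 1.46 (SE 0.29, adjusted p = 0.00249), the 2 members called of 44 tested, against 23 of 1085 ORs (2.12%). *Olfr491* passed without any 1 of the 12 libraries, and *Olfr478* without any but the first of 2,5-DMP (adjusted p = 0.16). The contrast was chosen after the values were seen, and 2,5-DMP was given in water and MTMT in ethanol. None of the 6 relatives of *Olfr491* passed the test against the controls. *Olfr477*, *Olfr472*, *Olfr473*, *Olfr476* and *Olfr508*, which share 73.9% to 81.3% of their amino acids with *Olfr491*, had log2 fold changes of -0.29, 0.10, 0.07, 0.18 and 0.05 after 2,5-DMP, and *Olfr474* had at most 5 reads in a library. In share, 5 of 44 members (*Olfr461*, *Olfr463*, *Olfr469*, *Olfr478* and *Olfr491*) lay above the controls in every 2,5-DMP library, against 6.26% of all ORs, and 1 (*Olfr464*) below, against 2.8%.

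**Figure D2:**
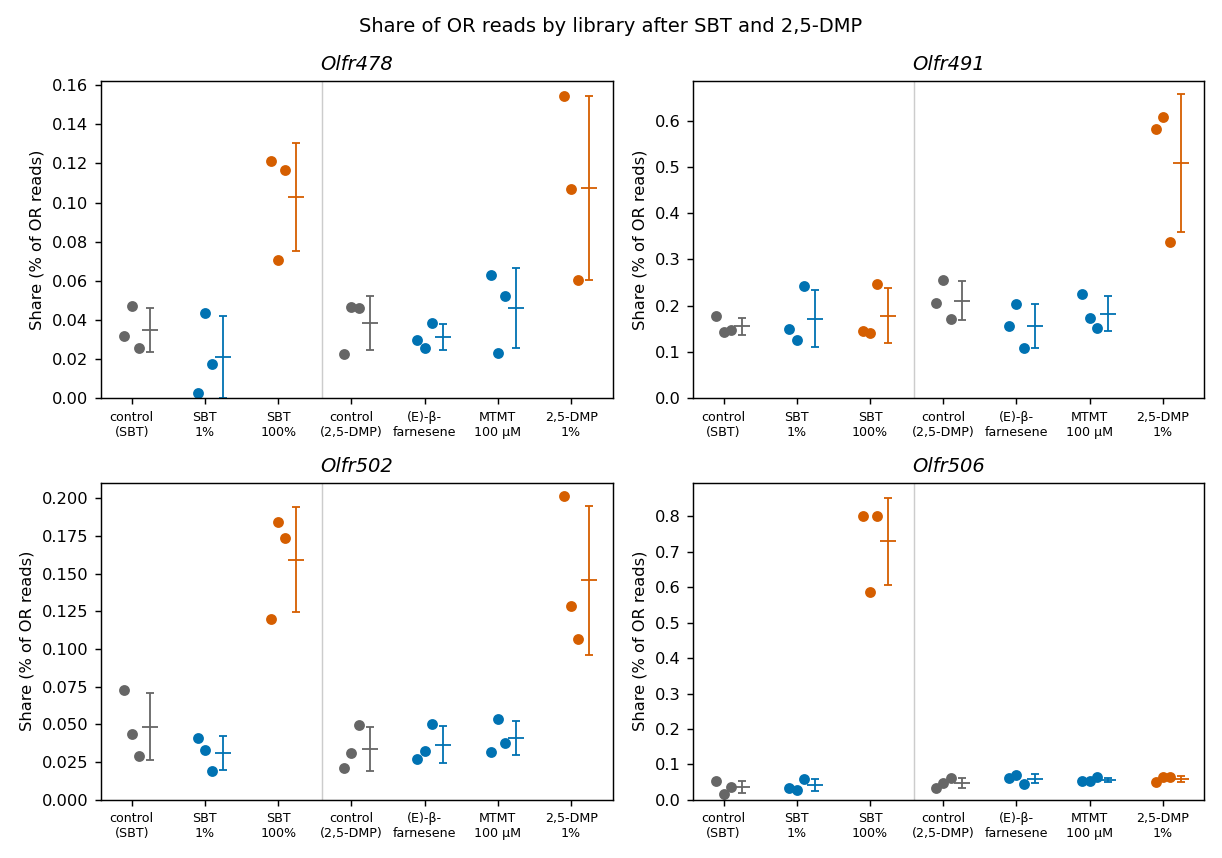
Share of OR reads (%) of *Olfr478*, *Olfr491*, *Olfr502* and *Olfr506* in each library, with the mean ± SD of 3 libraries beside the points. *Olfr478* and *Olfr502* are above the controls after both 100% SBT and 2,5-DMP, *Olfr506* after 100% SBT only of the odors drawn, and *Olfr491* after 2,5-DMP, where its 3 libraries lie between 0.338% and 0.609%.

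The relatives by sequence were also counted as a list. At 100% SBT, 18 of the 19 members with at least 70% identity were tested, 1 was called, 10 had a positive fold change and the median log2 fold change was 0.07, against -0.07 over all ORs. The highest of their log2 fold changes was 2.01. The lowest value, -4.29, is that of *Olfr498*, which had too few reads for a usable fold change. After 2,5-DMP all 19 were tested, 0 were called and 10 were positive, with a median of 0.07 against 0.01 over all ORs. The result depended on the limit. With at least 60% identity, 1 of 26 tested was called at 100% SBT and 12 were positive, with a median of -0.16. After 2,5-DMP 1 of 27 in that wider list was called (*Olfr491*) and 16 were positive, with a median of 0.07. These fits were without pairing, and with replicate number as a block *Olfr478*, 1 of the 19, passed. Of the 8 members that are among the 5 nearest to *Olfr502* or to *Olfr506*, 6 were tested at 100% SBT with a median of -0.14 and 7 after 2,5-DMP with a median of 0.05, and 0 were called in either.

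**Figure D3:**
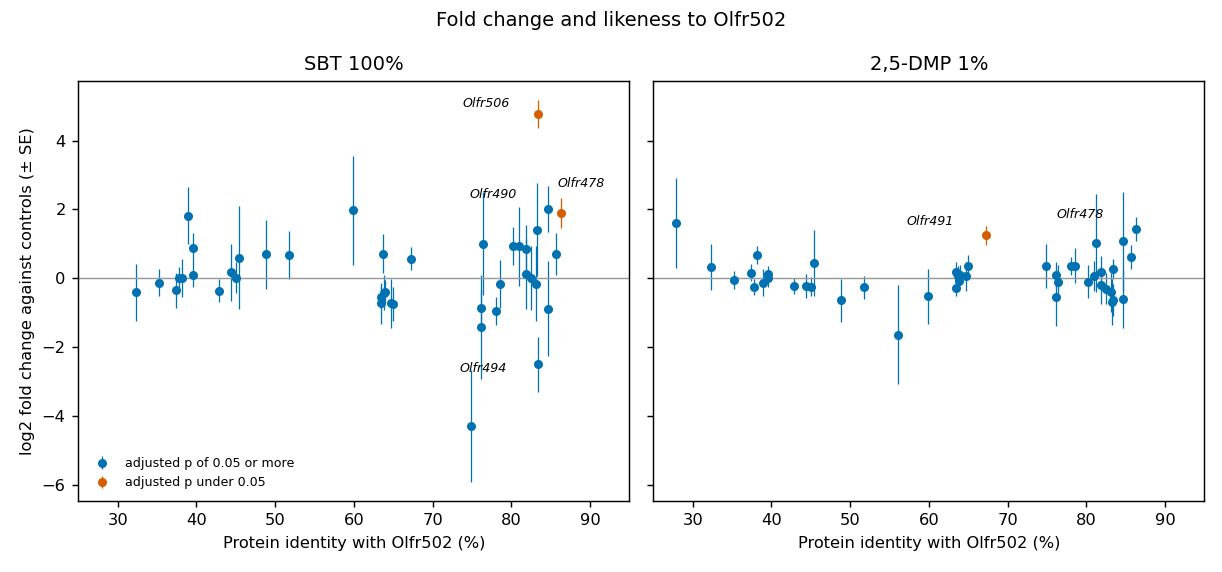
log2 fold change ± standard error (y axis) of the receptors tested in 100% SBT (left) and 2,5-DMP (right) against their protein identity with *Olfr502* (x axis, %), with *Olfr506* as 1 of the points. Among receptors over 80% identical to *Olfr502*, fold changes at 100% SBT run from well below 0 to that of *Olfr506*, and *Olfr478* is the most similar of all.

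The remaining odors called no member. Of 40 to 42 members tested, 0 were called after DHB (0.564% of all ORs called), (E)-β-farnesene (1.77%), 100 µM MTMT (0.281%), β-caryophyllene, 10 mM MTMT and CPD (0.0% each), and 0 by DESeq2. At an unadjusted p under 0.05 there were 2, 3, 1, 3, 0 and 1 members in that order, against 3.57%, 6.44%, 4.12%, 4.87%, 6.55% and 3.81% of all ORs. After DHB the lowest p belonged to *Olfr520* (20, 20 and 32 reads against 3, 13 and 14) and *Olfr469* (20, 56 and 72 against 12, 37 and 24). After (E)-β-farnesene they were *Olfr479* (241, 163 and 223 reads against 68, 105 and 154) and *Olfr512* (15, 17 and 27 against 19, 49 and 30), and *Olfr512* was in second place for 100 µM MTMT too, behind *Olfr464* (184, 164 and 195 reads against 150, 365 and 290). (E)-β-farnesene and 100 µM MTMT share these controls.

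In β-caryophyllene *Olfr513* (1, 0 and 0 reads against 2, 5 and 17) and *Olfr485* (3, 9 and 3 against 28, 22 and 10) had the lowest p. In 10 mM MTMT these were *Olfr490* (2, 1 and 4 reads against 5, 8 and 7) and *Olfr461* (40, 28 and 48 against 23, 24 and 18), and in CPD *Olfr497* (0, 3 and 7 against 6, 15 and 7) and *Olfr490* (0, 3 and 2 against 4, 8 and 3). Adjusted p for all of these ran from 0.406 to 0.994 (edgeR).

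The 48 members together took 1.87% to 4.28% of OR reads in the 51 libraries (median 2.62%), while they are 4.3% of the OR genes. Reads were concentrated in few members, with *Olfr477* holding 17.2% of all member reads in controls and the top 5 (*Olfr477*, *Olfr472*, *Olfr464*, *Olfr491* and *Olfr509*) holding 51.2%. After 100% SBT the summed share was 1.93%, 1.87% and 2.21% against 2.48%, 2.88% and 2.73%, below the controls in every library, for a mean of 2 ± 0.184% against 2.69 ± 0.2% (SD, n = 3 each). The two-sided exact permutation test gave p = 0.1, the smallest that 3 against 3 libraries allow, and 0.429 after adjustment over the 10 comparisons. On the TMM scale, which sets libraries level on the bulk of ORs in place of their total, the difference shrank from -0.69 to -0.0548 percentage points (p = 0.6, exact permutation test). The median log2 fold change of all ORs in this comparison was -0.47 with plain library totals and -0.07 with TMM.

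After 2,5-DMP the sum was 3.04%, 3.08% and 2.86% against 2.71%, 2.71% and 2.45%, above the controls in every library (exact permutation p = 0.1, adjusted 0.429). The means differed by 0.368 percentage points, and *Olfr491*, a member of the sum, was at 0.509% against 0.211%. On the TMM scale the difference was 0.297 (exact permutation p = 0.3). The sum over the 19 members with at least 70% identity was also above the controls, at 0.447 ± 0.00737% against 0.35 ± 0.0305% (SD, n = 3 each, exact permutation p = 0.1, adjusted 0.4). *Olfr478* is 1 of the 19, and without it the sum was 0.299%, 0.332% and 0.386% against 0.297%, 0.303% and 0.335%, which overlap. At 100% SBT the sum over the 19 overlapped the controls, with 0.388 ± 0.0206% against 0.42 ± 0.0969%, lower in share but higher on the TMM scale (0.445% against 0.367%). In the other 8 comparisons the summed share of the 48 members overlapped the controls, with differences between -0.48 and 0.362 percentage points. In CPD, where replicate numbers were taken as pairs, each odor library was below the control of its number, at 2.94%, 1.94% and 2.45% against 3.09%, 2.77% and 2.63%.

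**Figure D4:**
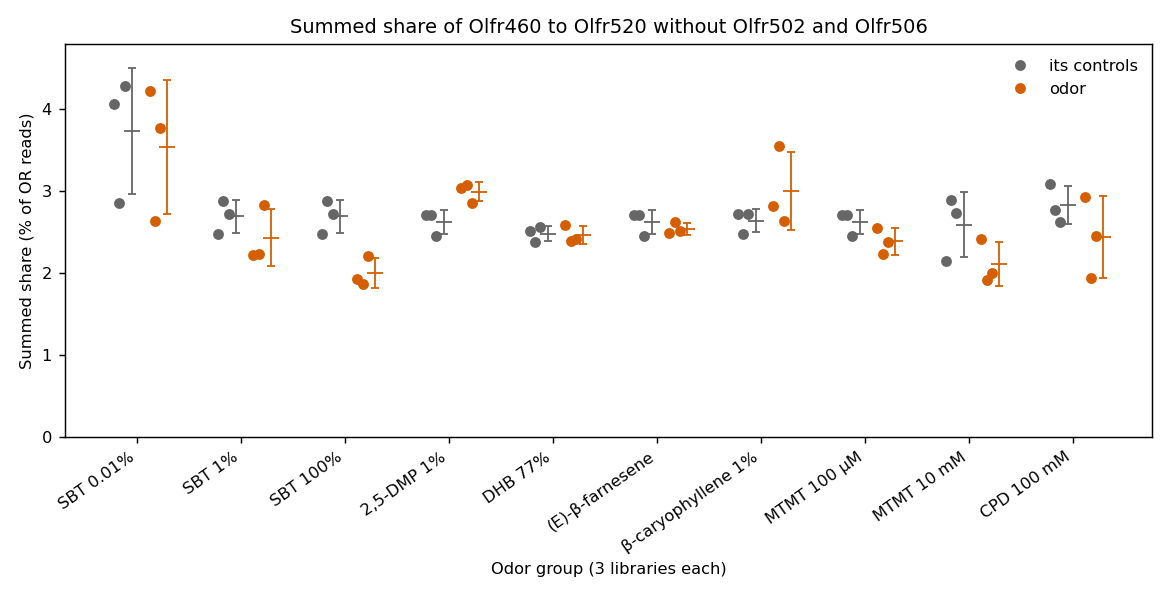
Summed share of the 48 receptors (% of OR reads) in each odor library and its 3 controls, with mean ± SD beside the points. The sum lies below the controls in all 3 libraries of 100% SBT and above them in all 3 of 2,5-DMP, and the widest spread is within the 0.01% SBT experiment, from 2.63% to 4.28%.

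The summed share varied most between libraries of the 0.01% SBT experiment. The libraries numbered 1 and 3 had summed shares of 4.07% and 4.28% in controls and 4.22% and 3.77% after odor, whereas those numbered 2 had 2.86% and 2.63%. The higher sums lay in 4 members, picked as those with the largest excess in the libraries numbered 1 and 3 and therefore described without a test. *Olfr477* was at 0.913% to 1.43% in the former 4 libraries against 0.261% and 0.283% in the latter. *Olfr491* was at 0.395% to 0.579% against 0.158% and 0.16%, *Olfr472* at 0.415% to 0.741% against 0.375% and 0.246%, and *Olfr476* at 0.126% to 0.179% against 0.0467% and 0.0341%. The other 44 members together took 1.59% to 1.87% in the former and 2.02% and 1.91% in the latter. Among them *Olfr518* averaged 0.155% in the former and 0.274% in the latter, and *Olfr509* 0.223% against 0.288%. *Olfr472*, *Olfr491* and *Olfr476* share 76.45%, 80.65% and 93.9% of their amino acids with *Olfr477*. *Olfr473* shares 80% with it too, but averaged 0.0437% in the libraries numbered 1 and 3 against 0.0405% in those numbered 2.

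In the 45 libraries of other experiments *Olfr491* ranged from 0.038% to 0.609% (median 0.157%), with the top value in 2,5-DMP. The controls numbered 1 and 3 of the 0.01% SBT experiment thus reached 0.399% and 0.579% without odor, within the range of *Olfr491* after 2,5-DMP (0.338% to 0.609%). Within the 2,5-DMP experiment, the controls and the other odors stayed between 0.107% and 0.255%. In the experiment with 1% and 100% SBT the 4 members together were lowest in the library numbered 2 of each group as well, at 0.688%, 0.496% and 0.433% against 0.606% to 1.47% in the others. This order did not hold throughout. Over all 17 groups the library numbered 2 was the lowest of 3 in 9, and these 9 include every group of both SBT experiments just described. In the control and odor groups of the 0.01% SBT experiment this order followed from how the 4 members were picked. The library numbered 2 was the middle in 3 and the highest in 5, among the latter 2,5-DMP (1.28%), (E)-β-farnesene (0.92%) and the controls they share (0.994%). Whether the order recurs more often than by chance was not tested. What the replicate number stands for is not in the labels. With that number as a block, the log2 fold change of *Olfr491* after 2,5-DMP was 1.21 against 1.24 without it.

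**Figure D5:**
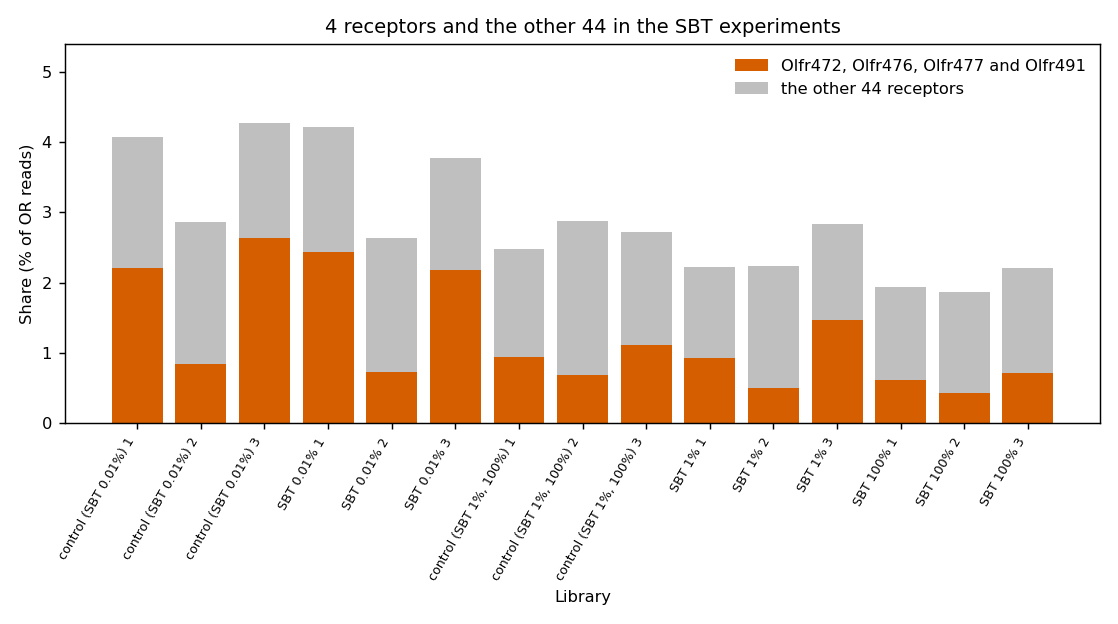
Share of OR reads (%) of *Olfr472*, *Olfr476*, *Olfr477* and *Olfr491* together (orange) and of the other 44 members (grey, stacked) in each library of both SBT experiments. In the 0.01% SBT experiment the orange part is 2.18% to 2.64% in the libraries numbered 1 and 3 and 0.723% to 0.84% in those numbered 2, with and without odor.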

How the data were processed

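Reads of pS6-IP-Seq libraries (SMART-Seq v4 and Nextera XT, not strand-specific) were aligned by the authors with STAR to GRCm38 and counted with RSEM, and the deposited tables hold expected counts per OR gene, as whole numbers, for 1117 OR genes, with *Olfr290* removed from the annotation beforehand. The authors' fold changes and p-values in the same tables were not used, nor was the 2-heptanone table, whose 6 columns match no sample here. Repeated control columns were identical and used once. The members and gene lists were chosen with earlier results of these data known.

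Each odor group was set against its own controls with edgeR 4.0.16 (R 4.3.3), using the quasi-likelihood test, TMM scaling, at least 10 reads over the libraries compared, and Benjamini-Hochberg adjustment over all ORs at 0.05. The test was checked on simulated counts with log2 changes of 2 or 3 in either direction. These exceed the changes of the members called against controls, and smaller changes were not simulated. Of the changed genes tested, 74.0% (100% SBT) to 98.5% (100 µM MTMT) were recovered. Shares are percent of OR reads, without totals of other genes, so depth is known for ORs only. Summed shares were compared with two-sided exact permutation tests (scipy 1.17.1). Receptors named are members past the threshold, the 2 lowest p per comparison, the 6 highest and 3 lowest levels, the 5 most like each reference receptor and those off chromosome 7. No member had a library over 5 times its group's median and over 0.5% of OR reads. Other receptors named, the identity lists and the contrast of 2,5-DMP with other odors were chosen after their values were seen. No protein table was used. Coding sequences of GENCODE M21 were translated and aligned with biopython 1.88 (BLOSUM62, global), and the planned fallback, the 5 nearest members, is given beside it. Annotated lengths are those of GENCODE M21.

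Replicate pairs of a group differed by more than sampling noise (chi-square per degree of freedom 5.22 to 28.0). Deviations of libraries with the same replicate number correlated at over 0.1 in all 3 pairs for 6 of 10 comparisons (1% SBT, 100% SBT, 2,5-DMP, DHB, β-caryophyllene and CPD), and over all comparisons from 0.053 to 0.318, so the numbers were taken to pair libraries in those 6. The main fits and the permutation tests did not use this pairing. Fits with replicate number as a block are given beside them where a call changed.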

Additional observations from a re-analysis of the deposited data

Results flagged for a closer look

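*Olfr478* differed between SBT doses, by 2.56 on the log2 scale between 100% and 1% in a direct contrast (edgeR, adjusted p = 0.0116), and was 3 of 3 libraries above the controls at 100%. The dose call was lost without the first library of 100% SBT or the third of 1% SBT. In the contrast of 2,5-DMP with the mean of (E)-β-farnesene and 100 µM MTMT, which share its controls, *Olfr491* differed by 1.55 and *Olfr478* by 1.46 (edgeR, adjusted p = 2.74e-05 and 0.00249). That contrast was chosen after the values were seen, uses the same 2,5-DMP libraries and sets an odor in water partly against 1 in ethanol. Without the first 2,5-DMP library *Olfr478* was not called in it. Groups of 3 libraries are too small for a test of single outlying libraries.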

How the results depend on the processing

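The count of members called at 100% SBT was 2 with DESeq2 and with library totals (*Olfr494* added to *Olfr478*) and 3 in the single fit of all libraries (*Olfr498* added too), and 0 (without the first odor library) to 2 (without the third control) leaving out 1 library. For 2,5-DMP it was 2 with DESeq2, library totals and no filter on low counts (*Olfr478* added to *Olfr491*), 0 in the single fit of all libraries, and 0 (without the first or second odor library or the third control) to 2 (without the third odor library) leaving out 1 library. In the direct contrast of SBT doses the single fit gave 2 (*Olfr469* added), and leaving out 1 library 0 to 1. With replicate number as a block, 2 members were called in 2,5-DMP in place of 1, and the pairing changed no other count of members called. Relatives by identity in place of neighbours gave 1 called at 100% SBT (at 50%, 60% or 70%) and 1 in 2,5-DMP (at 50% or 60%). On the TMM scale the difference in summed share moved to -0.0548 for 100% SBT, 0.147 for DHB and 0.0505 percentage points for 10 mM MTMT, turning the sign in the last 2, and leaving out 1 library moved no summed share by more than the SD between libraries. *Olfr510* after 2,5-DMP turned to -0.26 without the second control, and was at 0.85 without the third. The title prefix as a block, run for both higher SBT doses, their contrast, DHB, 10 mM MTMT and CPD, changed no count of members called. Members with a few reads per library allow no statement on change, and 3 libraries a group cannot take the permutation test under 0.1.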
